A study of Rattus norvegicus with 9 samples.

Results

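The genes described here carry glucose into the cell and break it down to lactate. They are Slc2a1, Hk1, Hk2, Aldoa, Pgk1, Eno1, Ldha and Pkm, and they were taken as every probe set of the array annotated to 1 of these symbols. The rule gave 17 of 8799 probe sets for the 8 genes, and it used no measured value. Of these 17, 3 were hexokinase control probe sets that were kept out of the fit, 1 was too dim to be tested and 13 were tested. A single probe set, M54926_at, stands for Ldha, and its annotation lists Ldhal1 beside Ldha, so the gene it reports is uncertain.

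Glycolysis starts when a transporter of the SLC2 family lets glucose in and a hexokinase traps it as glucose 6-phosphate. Aldolase then splits the sugar, phosphoglycerate kinase and pyruvate kinase make ATP, and lactate dehydrogenase turns pyruvate into lactate while restoring NAD+. Many of these genes are textbook targets of the hypoxia-inducible factor HIF-1, and the lung endothelium and alveolar type 2 cells both use glucose as a fuel.

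Total RNA of rat lung was measured on 9 short oligonucleotide arrays that make up 8 samples in 4 groups of 2. The rats were mechanically ventilated with 100% oxygen, mechanically ventilated with 21% oxygen, breathing spontaneously with 100% oxygen or breathing spontaneously with 21% oxygen. In the first of these groups, sample b was run on 2 arrays, whose average counts as 1 sample. Strain, age, tidal volume and duration are not given in the sources used here. Nothing in the labels ties samples a and b to different animals, and the p-values may therefore reflect technical spread alone.

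The arrays had been brought to a common trimmed mean, while the 99th percentile was 7072 to 8357 on the 3 arrays of mechanical ventilation with 100% oxygen and 9931 to 14581 on the other arrays. The number of arrays limits the precision. The 4 surfactant protein genes, which mark alveolar type 2 cells, had sums that differed between groups, and none was at 0 throughout. They were 27244 and 29866 in mechanical 100% samples and 44506 and 48664 in mechanical 21% samples. Spontaneous 100% samples had 38066 and 51089, and spontaneous 21% samples had 65437 and 54362. Sums of markers of other tissues differed between groups as well. Those of T lymphocytes reached 33362 and 35097 in mechanical 21% samples, against 2094 to 3066 in the other samples, and those of skeletal muscle reached 30367 and 29357 in spontaneous 100% samples, against 3773 to 9595 in the others. The labels of both spontaneous 21% arrays and of 2 of the 3 mechanical 100% arrays hold a line for a lot batch that names no lot, and the other 5 arrays hold none. This lot line nearly coincides with the groups that the interaction of ventilation and oxygen sets against the others, and the 2 can hardly be told apart. With it in the fit, interaction calls over all probe sets numbered 151, against 1439 without it. In whole lung, fewer cells of a type and less RNA per cell cannot be told apart.

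The stretches of 250 bases before the annotated start are shown for Slc2a1, Hk1, Eno1 and Ldha, whose levels differed between groups in the results that follow. Aldoa also had a call and is not shown, and every window shown holds a match. They come from RefSeq on build GRCr8 and read 5′ to 3′ on the gene's strand, and for Hk1 and Eno1 the second of 2 annotated starts is shown. Capitals mark the HIF-1 core letters ACGTG or GCGTG, or the same letters read on the opposite strand as CACGT or CACGC. In Ldha, CACGTG holds overlapping matches on both strands.
Slc2a1 chr5:138002272-138002521 (plus strand): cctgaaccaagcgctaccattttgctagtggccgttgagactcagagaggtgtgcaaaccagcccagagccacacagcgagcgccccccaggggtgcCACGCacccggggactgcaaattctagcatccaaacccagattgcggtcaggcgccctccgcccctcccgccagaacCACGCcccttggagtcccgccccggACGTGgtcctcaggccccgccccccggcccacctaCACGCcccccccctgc
Hk1 chr20:30842073-30842322 (minus strand): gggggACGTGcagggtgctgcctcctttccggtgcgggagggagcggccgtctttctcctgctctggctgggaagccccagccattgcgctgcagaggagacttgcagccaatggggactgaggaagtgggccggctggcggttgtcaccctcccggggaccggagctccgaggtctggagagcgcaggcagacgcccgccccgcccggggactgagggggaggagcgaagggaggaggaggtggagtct
Eno1 chr5:166003111-166003360 (plus strand): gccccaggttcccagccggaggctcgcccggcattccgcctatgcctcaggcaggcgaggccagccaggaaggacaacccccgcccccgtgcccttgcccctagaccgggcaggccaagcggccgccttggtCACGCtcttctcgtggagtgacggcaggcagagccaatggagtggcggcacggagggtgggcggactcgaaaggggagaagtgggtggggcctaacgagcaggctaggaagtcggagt
Ldha chr1:106507842-106508091 (plus strand): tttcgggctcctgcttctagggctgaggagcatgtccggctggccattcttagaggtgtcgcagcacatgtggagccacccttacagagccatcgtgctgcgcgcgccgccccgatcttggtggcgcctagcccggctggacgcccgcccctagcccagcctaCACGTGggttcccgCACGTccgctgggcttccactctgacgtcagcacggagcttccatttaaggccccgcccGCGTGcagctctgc

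The windows of Slc2a1 and of Ldha held 4 matches each, and those of Hk1 and Eno1 shown here held 1 each. Of all 33469 windows of this length in the table, 36.7% held at least 1 match, 16.02% held 2 or more and 5.59% held CACGTG. The 7 genes with an entry had 11 windows, of which 6 held a match and 5 held none. Hk2, Pkm and the first start of Hk1 had no match in their windows, the first start of Eno1 had 1, Aldoa had 1 in the third of its 3 windows, and Pgk1 is named only. A match is a run of letters, not a measured binding site.

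Slc2a1 encodes GLUT1, the transporter for basal glucose uptake, and its brighter probe set S68135_s_at was lowest in lungs of rats breathing 100% oxygen spontaneously. Its intensity was 935 and 1173 in mechanical 100% samples, 822 and 973 in mechanical 21% samples, 502 and 475 in spontaneous 100% samples, and 759.6 and 859 in spontaneous 21% samples. The suffix _s_at marks probes shared between transcripts. Both spontaneous 100% samples lay below all 6 others, while the other 3 groups overlapped one another in part.

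With 100% oxygen, Slc2a1 averaged 1054 ± 168 under mechanical ventilation and 488 ± 18.9 with spontaneous breathing (SD, n = 2 each), a 2.16-fold difference. The log2 change was 1.04 ± 0.17 (SE, limma, adjusted p = 0.0051), where each change is that of log2(intensity + 40), and a call means an adjusted p under 0.05 over all 5244 tested probe sets. It passed in every alternative run. With spontaneous breathing, 100% oxygen gave a lower level than 21% oxygen, at 488 ± 18.9 against 809 ± 70.4 (log2 change −0.68 ± 0.17, adjusted p = 0.029 by limma). That call was lost when any 1 of the 4 samples compared was left out, with log2 changes between −0.77 and −0.60. With 21% oxygen, ventilated lungs had a log2 change of 0.14 (adjusted p = 0.61 by limma), and it missed the threshold. The difference between the ventilation effects, the interaction, was 0.90 ± 0.24 (adjusted p = 0.025 by limma), and it lost its call when any of 5 samples was left out, under quantile or cyclic loess scaling, with the medians of the arrays aligned, with no filter and with the lot line allowed for.

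The dimmer Slc2a1 probe set, M13979_at, had 315 and 341 in mechanical 100% samples, 265 and 246 in mechanical 21% samples, 266 and 79.5 in spontaneous 100% samples, and 181 and 187 in spontaneous 21% samples. The 2 spontaneous 100% samples lay far apart here, one near the ventilated lungs and the other below all samples. Its ventilation effect at 100% oxygen was 0.94 ± 0.39 (adjusted p = 0.11 by limma), of the sign of the brighter probe set and short of the threshold. Over the 8 samples the 2 probe sets correlated at 0.67, a description only.

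Hk1, the hexokinase of most tissues, was read by 2 tested probe sets that moved in opposite directions. The probe set rc_AI012593_at had 744 and 938 in mechanical 100% samples, 660.3 and 723 in mechanical 21% samples, 518 and 505 in spontaneous 100% samples, and 894 and 964 in spontaneous 21% samples. As with Slc2a1, the spontaneous 100% samples were the lowest and did not overlap any other group.

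Its mean was 841 ± 137 under mechanical ventilation with 100% oxygen and 511 ± 8.99 with spontaneous breathing of 100% oxygen (SD, n = 2 each), 1.64 times as high (log2 change 0.67 ± 0.16, adjusted p = 0.019 by limma). This call was lost without mechanical 100% b or either spontaneous 100% sample, and under quantile, cyclic loess and median scaling. Oxygen with spontaneous breathing gave −0.81 ± 0.16 (adjusted p = 0.014 by limma), against 929 ± 49.3 in spontaneous 21% lungs, and lost its call without either spontaneous 100% sample or without spontaneous 21% b. The interaction was 1.07 ± 0.22 (adjusted p = 0.010 by limma) and passed with any 1 sample left out, and among the other settings it was lost only when the lot line was allowed for.

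The other Hk1 probe set, U27319exon_at, had 389.5 and 626 in mechanical 100% samples, 1320.4 and 704 in mechanical 21% samples, 1219.5 and 1591 in spontaneous 100% samples, and 621 and 767 in spontaneous 21% samples. Here the spontaneous 100% samples were high and the mechanical 100% samples low, and the 626 of sample b was the mean of 932 and 319.7 on its 2 arrays. The log2 change was −1.51 ± 0.30 for ventilation at 100% oxygen (adjusted p = 0.011 by limma), and with oxygen under mechanical ventilation the probe set fell by 1.00 ± 0.30 (adjusted p = 0.033 by limma). Both calls were lost with the first of the 2 arrays in place of their mean, and without mechanical 100% a. The first was also lost without spontaneous 100% b, and the second without mechanical 21% a or either spontaneous 100% sample. The interaction was −1.97 ± 0.42 (adjusted p = 0.011 by limma). Its call was also lost with the first of the 2 arrays in place of their mean, and with no filter on low signal. A fit that allowed for the lot line turned the sign of the interaction, to 0.28. Across the 8 samples the 2 Hk1 probe sets correlated at −0.73, so no single direction can be given for Hk1. The 3 hexokinase control probe sets read 284 or less in every sample, below 294, the highest reading of the 6 control probe sets of the sense strand.

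Endothelial markers had their lowest sums in spontaneous 100% samples, where Slc2a1 S68135_s_at and Hk1 rc_AI012593_at were lowest too. The next lowest sums were in mechanical 21% samples, where S68135_s_at had 822 and 973, against 759.6 and 859 in spontaneous 21% samples. There rc_AI012593_at had 660.3 and 723, against 894 and 964 in spontaneous 21% samples. The 4 markers summed to 9783 and 8859 in mechanical 100% samples, 6019.6 and 6837 in mechanical 21% samples, 5370.0 and 5744 in spontaneous 100% samples, and 12341 and 10683 in spontaneous 21% samples, with no marker at 0 in all samples. Vwf, a dim endothelial marker here, was at 0 or below in both mechanical 21% samples and in spontaneous 100% a. Ace, an enzyme of the lung capillary surface, was higher by 1.05 (log2) for ventilation at 100% oxygen (adjusted p = 0.0013 by limma) and changed by −1.21 for oxygen with spontaneous breathing (adjusted p = 0.00067 by limma). Kdr, a VEGF receptor of endothelium, changed by 1.02 (adjusted p = 0.014 by limma) and −1.34 (adjusted p = 0.0070 by limma) in these comparisons. At 21% oxygen, Ace was lower in ventilated lungs by a log2 change of −1.16 (adjusted p = 0.00097 by limma). The other 2 of the 3 tested endothelial markers were not called there. Slc2a1 S68135_s_at had 0.14 in this comparison, and Hk1 rc_AI012593_at had −0.41 (adjusted p = 0.13 by limma), without a call. The part of endothelial RNA in the Slc2a1 and Hk1 results was not tested.

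**Figure D1:**
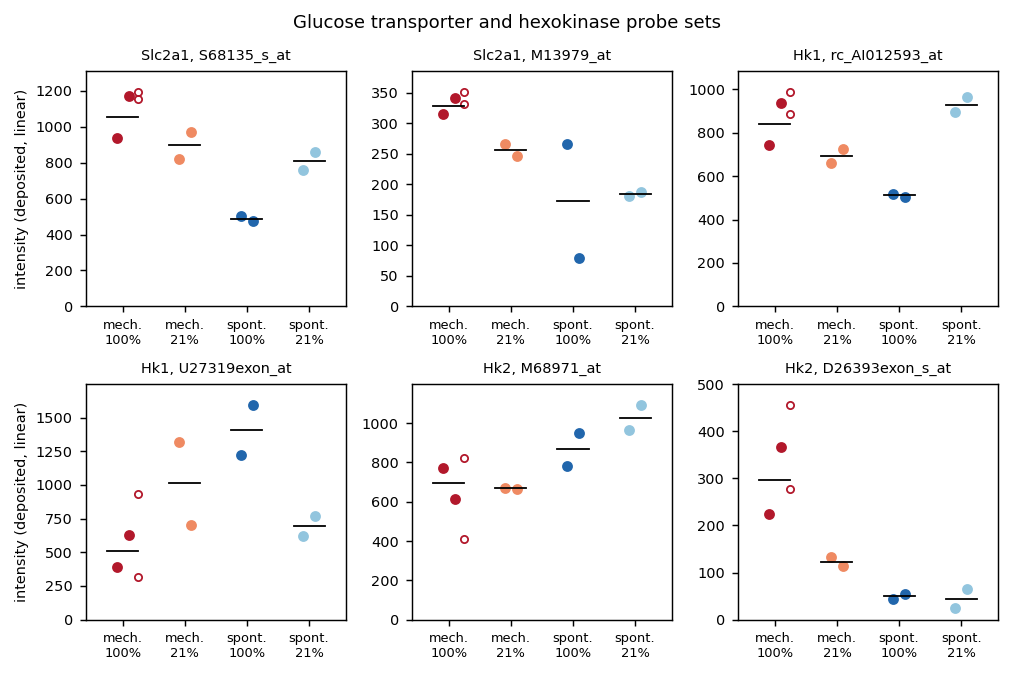
Deposited intensity on a linear axis for the 2 Slc2a1 probe sets and for 2 probe sets each of Hk1 and Hk2, in the 4 groups. Filled points are samples, bars are group means, and open points are the 2 arrays averaged into mechanical 100% b. Slc2a1 S68135_s_at and Hk1 rc_AI012593_at are lowest in the spontaneous 100% samples, while Hk1 U27319exon_at is highest there.

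Hk2, the inducible hexokinase of muscle and fat, had no call in its tested probe set M68971_at, and its other probe set was below the limit for testing. M68971_at had 772 and 615 in mechanical 100% samples, 669 and 666 in mechanical 21% samples, 783 and 949 in spontaneous 100% samples, and 965 and 1090.2 in spontaneous 21% samples. All 4 ventilated samples lay below the 4 spontaneous ones, and the arrays of mechanical 100% b differed at 821 and 409. The log2 change for ventilation was −0.59 ± 0.18 at 21% oxygen (adjusted p = 0.060 by limma) and −0.34 ± 0.18 at 100% oxygen (adjusted p = 0.19 by limma). The dim probe set D26393exon_s_at ran the other way, with 225 and 366 in mechanical 100% samples, 132 and 114 in mechanical 21% samples, 44.3 and 54.5 in spontaneous 100% samples, and 24.7 and 65.1 in spontaneous 21% samples. Fitted without the filter on low signal, it changed by 1.86 ± 0.33 for ventilation at 100% oxygen (adjusted p = 0.038 by limma). Of its 8 sample values only the 366 exceeded the highest sense-strand control reading of 294.

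Eno1, which makes phosphoenolpyruvate, was highest in mechanically ventilated lungs at 21% oxygen by both of its probe sets. X02610_at had 3311 and 3581 in mechanical 100% samples, 5699 and 5826 in mechanical 21% samples, 3356 and 2619 in spontaneous 100% samples, and 3661 and 3821 in spontaneous 21% samples. The mechanical 21% samples stood above all others, and the mechanical 100% samples overlapped the spontaneous 100% ones.

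Its mean was 3446 ± 191 under mechanical ventilation with 100% oxygen and 5762 ± 89.6 under mechanical ventilation with 21% oxygen (SD, n = 2 each). The log2 change for this oxygen effect was −0.74 ± 0.14 (adjusted p = 0.0054 by limma), and it passed in every alternative run. Ventilation at 21% oxygen gave 5762 ± 89.6 against 3741 ± 114 in spontaneous 21% lungs, 1.54 times as high (log2 change 0.62 ± 0.14, adjusted p = 0.023 by limma). That call was lost without any 1 of the 4 samples compared, with log2 changes of 0.59 to 0.65.

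The second Eno1 probe set, X02610_g_at, had 7453 and 7644 in mechanical 100% samples, 10193 and 9939 in mechanical 21% samples, 6854 and 6262 in spontaneous 100% samples, and 7816 and 8427 in spontaneous 21% samples. The mechanical 21% samples were again the highest, and the pair correlated at 0.97 over the 8 samples. Both probe sets come from the same source sequence, so their likeness is not separate support. Its oxygen effect under ventilation was −0.41 ± 0.11 (adjusted p = 0.020 by limma), but quantile scaling turned it to 0.17 and leaving out any of the 4 ventilated samples ended the call. For ventilation at 21% oxygen it gave 0.31 ± 0.11 (adjusted p = 0.095 by limma).

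Pgk1 makes the first ATP of glycolysis, and M31788_g_at followed Eno1 in part. It had 4267 and 4311 in mechanical 100% samples, 6388 and 5870.5 in mechanical 21% samples, 5218 and 4828 in spontaneous 100% samples, and 4404 and 4324 in spontaneous 21% samples. The order was mechanical 21%, then spontaneous 100%, with the remaining 2 groups together at the bottom.

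Oxygen under ventilation gave −0.51 ± 0.11 for this Pgk1 probe set (adjusted p = 0.0088 by limma), at 4289 ± 30.5 with 100% oxygen against 6129 ± 366 with 21% oxygen. The call was lost without mechanical 100% a or mechanical 21% a, and in no other setting. Ventilation at 21% oxygen gave 0.49 ± 0.11 (adjusted p = 0.023 by limma), 1.40 times as high, and lost its call without any 1 of the 4 samples compared. The oxygen effect differed between the ways of breathing by −0.71 ± 0.15 (interaction, adjusted p = 0.011 by limma), a call lost with the lot line allowed for.

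Another Pgk1 probe set, rc_AA892797_at, had 5891 and 6621 in mechanical 100% samples, 6777 and 8137 in mechanical 21% samples, 7823 and 7472 in spontaneous 100% samples, and 6098 and 5494 in spontaneous 21% samples. Here the spontaneous 100% samples were as high as the mechanical 21% ones. No pairwise comparison passed, and the interaction was −0.65 ± 0.19 (adjusted p = 0.035 by limma), lost without any of 6 samples and with the lot line allowed for. The third, M31788_at, read 96.1 to 187 in all samples, below the highest sense-strand control reading of 294, and had no call.

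The samples with the highest Eno1 and Pgk1 M31788_g_at were those with the highest sums of T lymphocyte and fat markers, which did not hold for Pgk1 rc_AA892797_at. The 11 T lymphocyte markers summed to 2170.4 and 2094 in mechanical 100% samples, 33362 and 35097 in mechanical 21% samples, 2689.9 and 2321 in spontaneous 100% samples, and 3066 and 2728 in spontaneous 21% samples. The 10 fat markers summed to 8863 and 10456 in mechanical 100% samples, 20691 and 22124 in mechanical 21% samples, 11245 and 11048 in spontaneous 100% samples, and 11607 and 11941 in spontaneous 21% samples. The fat sum was carried by Ucp1, the uncoupling protein of brown fat, Fabp4 and Cidea, and not by all markers. Ucp1 averaged 6213 in mechanical 21% samples against 259.6 in spontaneous 21% samples, while Lipe averaged 969.7 against 1964, Lep 2828 against 3328 and Lpl 4469 against 4933. Cd28 among the T lymphocyte markers and Plin1 among the fat markers were at 0 or below in every sample. The part of these tissues in the Eno1 and Pgk1 results was not tested.

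Aldoa, the aldolase of muscle and most other tissues, had 4664 and 3870.2 in mechanical 100% samples, 5191 and 7156 in mechanical 21% samples, 5298 and 4553 in spontaneous 100% samples, and 6037 and 6135 in spontaneous 21% samples. Mechanical 100% and spontaneous 100% samples overlapped, as did mechanical 21% and spontaneous 21% samples. Its single probe set, rc_AA924326_s_at, carries the same suffix as the Slc2a1 one. Oxygen under ventilation gave −0.52 ± 0.17 (adjusted p = 0.049 by limma), a call that was lost under 10 of the other settings and when any of 7 samples was left out. Oxygen with spontaneous breathing gave −0.31 ± 0.17 (adjusted p = 0.26 by limma), in a comparison whose spontaneous 100% samples had the highest skeletal muscle sums.

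The Ldha and Ldhal1 probe set was lowest in mechanically ventilated lungs with 100% oxygen. M54926_at had 6541 and 6947 in mechanical 100% samples, 10877 and 11327 in mechanical 21% samples, 9131 and 11042 in spontaneous 100% samples, and 11219.8 and 11189 in spontaneous 21% samples. Both mechanical 100% samples lay below every other sample, and the other 6 samples lay between 9131 and 11327.

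Against mechanical 21% lungs the log2 change of M54926_at was −0.72 ± 0.12 (adjusted p = 0.0041 by limma), at 6744 ± 287 against 11102 ± 318 (SD, n = 2 each). Against spontaneous 100% lungs it was −0.58 ± 0.12 (adjusted p = 0.014 by limma), and against spontaneous 21% lungs −0.73 ± 0.12 (adjusted p = 0.0069 by limma). All 3 calls were lost under quantile scaling, where the changes were −0.16, −0.03 and −0.04. The second was also lost under cyclic loess and without either mechanical 100% sample, and the third without mechanical 100% a. The interaction of −0.56 ± 0.17 (adjusted p = 0.046 by limma) was lost under both of these scalings, with the lot line allowed for and without any of 7 samples.

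The arrays of mechanical 100% were also those with the lowest 99th percentile, and some other bright probe sets were low on them. Others were not: P4ha1 averaged 9480 in mechanical 100% samples against 5977 in mechanical 21% samples, and Lpl 4885 against 4469. Gapdh, the glycolytic enzyme between aldolase and Pgk1, is read by 3 control probe sets outside the fit. Its 3′ probe set averaged 7254 ± 507 in mechanical 100% samples, 10898 ± 321 in mechanical 21% samples, 9932 ± 1665 in spontaneous 100% samples and 11109 ± 292 in spontaneous 21% samples (SD, n = 2 each). The 3′ beta-actin control averaged 6133 ± 321 in mechanical 100% samples, against 11396 to 16220 in the other groups. Their part in the M54926_at result was not tested beyond the scalings.

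Pkm, the last enzyme of glycolysis to make ATP, had no call in any comparison. Its probe set rc_AA818951_at had 5194 and 5519 in mechanical 100% samples, 5523 and 5669 in mechanical 21% samples, 5764 and 5846 in spontaneous 100% samples, and 5034 and 5695 in spontaneous 21% samples. The widest sample range was within spontaneous 21%. The 95% interval of the log2 change was −0.32 to 0.19 for oxygen under ventilation and −0.37 to 0.14 for ventilation at 100% oxygen, so the data leave room for changes of that size.

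**Figure D2:**
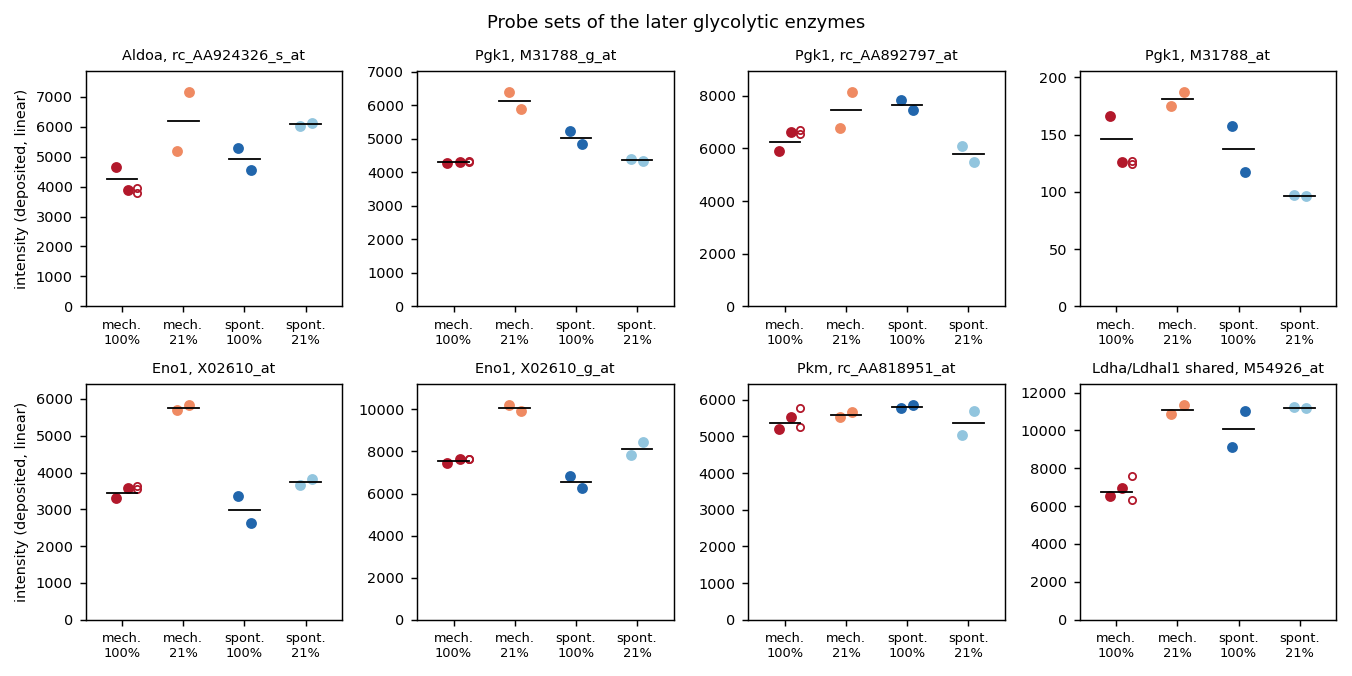
Deposited intensity on a linear axis for the probe sets of Aldoa, Pgk1, Eno1, Pkm and the Ldha and Ldhal1 probe set in the 4 groups, with filled points for samples, open points for the 2 arrays of mechanical 100% b and bars for group means. Both Eno1 probe sets are highest in mechanical 21% samples, and M54926_at is lowest in mechanical 100% samples.

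Counted over the 13 tested probe sets, oxygen with mechanical ventilation had 6 calls, all lower, where 35.1% of all probe sets were called, 20.7% higher and 14.4% lower. The members' median log2 change was −0.26, and that of all tested probe sets was 0.14. The 6 include both Eno1 probe sets, which share a source sequence, and Hk1 U27319exon_at is opposed by the other Hk1 probe set at 0.26. Under quantile scaling 3 members were called. The called members other than U27319exon_at were bright, and some other bright probe sets such as Gapdh were low on the mechanical 100% arrays too. Other bright ones such as P4ha1 were not low there, and the bright members Pkm and Pgk1 rc_AA892797_at had no call. All tested probe sets include many dimmer ones, and no background of like brightness was counted. Ventilation at 21% oxygen had 2 calls, both higher (14.5% of all called, 7.00% higher and 7.49% lower), and ventilation at 100% oxygen had 4, of which 2 were higher and 2 lower (26.9% of all called, 16.6% higher and 10.4% lower). Oxygen with spontaneous breathing had 2 calls, both lower (16.8% of all called, 7.06% higher and 9.71% lower), and ventilation with oxygen against neither had 1, lower (14.5% of all called, 7.49% higher and 7.02% lower). The interaction had 6, of which 2 were higher and 4 lower (27.4% of all called, 16.9% higher and 10.5% lower).

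Apart from oxygen under ventilation and the interaction, the shares called in either direction lie near the background of all probe sets or below it. By direction, 2 of 13 were higher for ventilation at 21% oxygen, where 7.00% of all were, and this difference was not tested. The 6 interaction calls include 2 probe sets of Hk1, with opposite signs, and 2 of Pgk1. For oxygen under ventilation, the share was not compared with that of probe sets of like brightness. With any 1 sample left out the counts ranged from 2 to 6 for oxygen under ventilation, 0 to 3 for ventilation at 21% oxygen and for oxygen with spontaneous breathing, and 2 to 5 for ventilation at 100% oxygen. Allowing for the lot line ended 15 of the 21 calls and turned the sign of 1. The 5 kept were Slc2a1 S68135_s_at for ventilation at 100% oxygen, Eno1 X02610_at, Pgk1 M31788_g_at and M54926_at for oxygen under ventilation, and M54926_at for mechanical 100% against spontaneous 21%. The lot line varied only within mechanical 100%, where the first array of sample b lacked it. Its term rests on that group's arrays alone, and the 2 arrays of sample b were fitted as separate. Neither a kept nor a lost call therefore tells the lot from the groups. The comparisons share groups, so their counts are not independent.

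**Figure D3:**
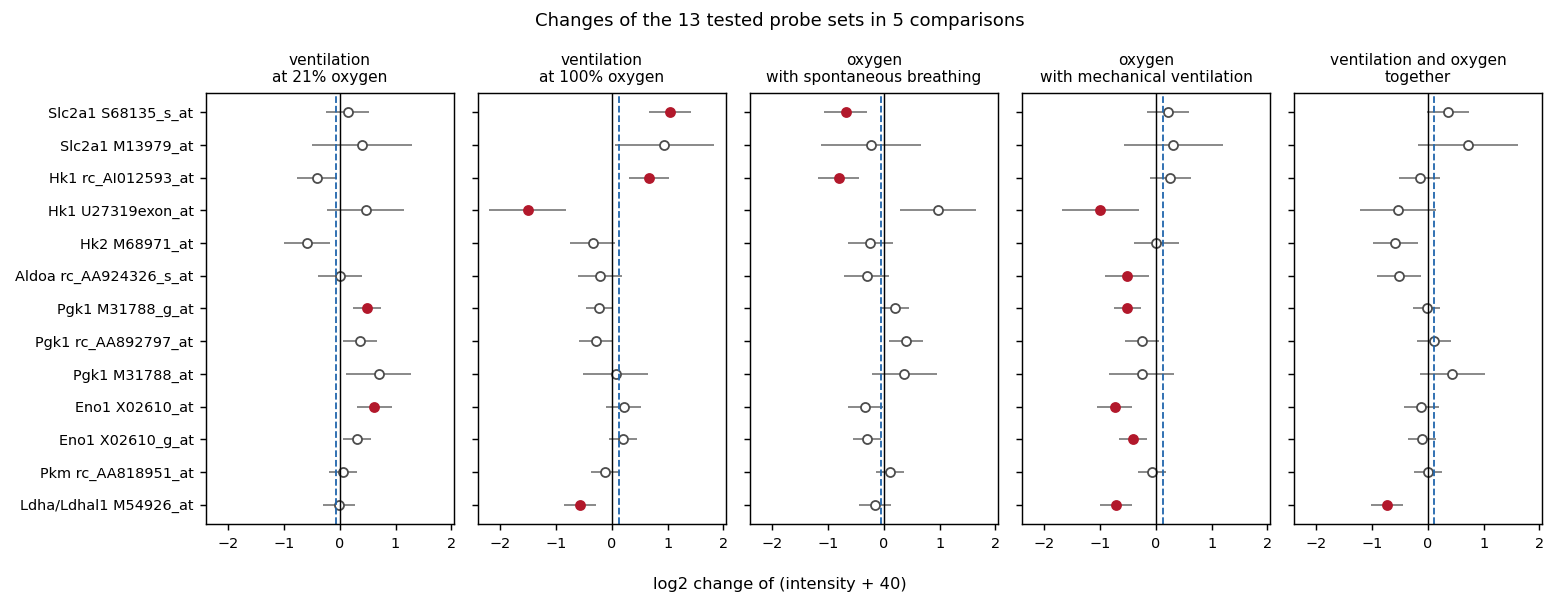
Log2 change of (intensity + 40) with its 95% interval for the 13 tested probe sets in 5 comparisons. Filled points passed an adjusted p under 0.05 by limma, the dashed line is the median of all 5244 tested probe sets, and the 6 filled points of oxygen with mechanical ventilation all lie below 0.

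**Figure D4:**
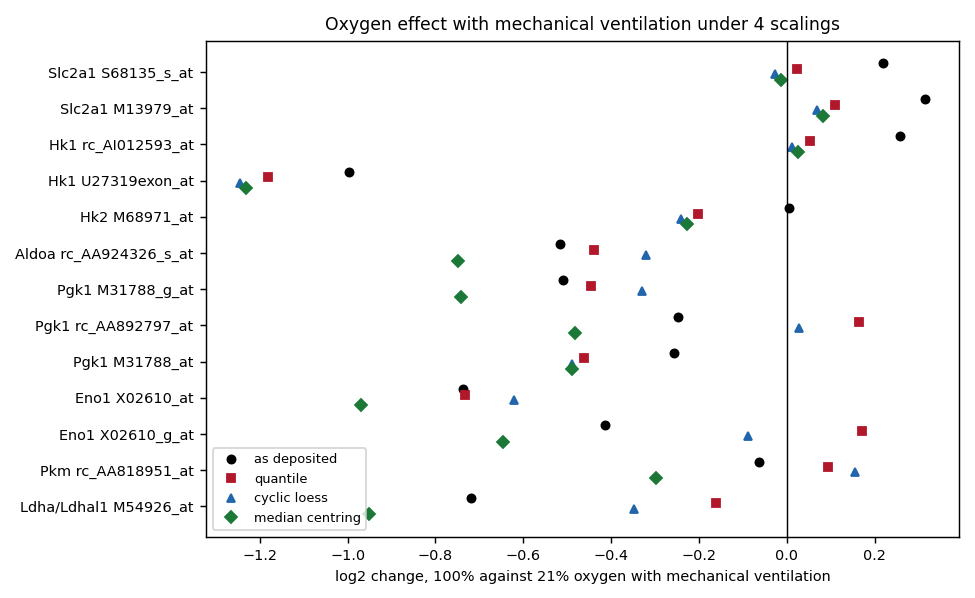
Log2 change of oxygen with mechanical ventilation under 4 scalings of the arrays, in which points left of 0 are lower with 100% oxygen. Eno1 X02610_at stays near −0.74 under the deposited and the quantile scaling, while Eno1 X02610_g_at turns to 0.17 under quantile scaling and M54926_at shrinks to −0.16.

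The genes that work beside these enzymes were drawn from lists of the pathway. Of 7 tested genes among other glycolytic enzymes, 2 were higher for ventilation at 21% oxygen, where 7.00% of all probe sets were. For oxygen under ventilation 2 were lower and 1 higher, where 14.4% and 20.7% of all probe sets were. Pgam1, phosphoglycerate mutase, averaged 5032 ± 561 in mechanical 100% samples, 9081 ± 111 in mechanical 21% samples, 5808 ± 374 in spontaneous 100% samples and 6763 ± 18.7 in spontaneous 21% samples. Its oxygen effect under ventilation was −0.85 (adjusted p = 0.0018 by limma), and the other 2 Pgam1 probe sets gave −0.54 and −0.53. Ldhb, the heart form of lactate dehydrogenase, fell by 1.00 in log2 under the same comparison (adjusted p = 0.0064 by limma) and was likewise highest in mechanical 21% samples, while its other probe set gave −0.54 (adjusted p = 0.094 by limma). Pfkl, a phosphofructokinase, was higher by 0.73 for ventilation at 100% oxygen (adjusted p = 0.026 by limma). That call was lost under quantile, cyclic loess and median scaling, with no filter and with the lot line allowed for.

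Among 10 tested genes of the fate of pyruvate and lactate, 2 were higher for ventilation at 21% oxygen (7.00% of all) and 2 lower for oxygen under ventilation (14.4% of all). Pdk1, the kinase that shuts off pyruvate dehydrogenase, had 78.0 ± 3.22 in mechanical 100% samples, 348 ± 27.3 in mechanical 21% samples, 116 ± 26.9 in spontaneous 100% samples and 89.0 ± 12.3 in spontaneous 21% samples. Only its mechanical 21% samples, at 329 and 368, exceeded the highest sense-strand control reading of 294. Its log2 changes were 1.59 for ventilation at 21% oxygen (adjusted p = 0.0070 by limma) and −1.72 for oxygen under ventilation (adjusted p = 0.0021 by limma). Mpc1, of the mitochondrial pyruvate carrier, changed by 0.60 (adjusted p = 0.0083 by limma) and −0.74 (adjusted p = 0.0017 by limma) in the same comparisons. Slc16a1, the lactate transporter MCT1, had 738 ± 54.2 in mechanical 100% samples and 245 ± 102 in spontaneous 100% samples (log2 change 1.49, adjusted p = 0.0056 by limma), while its other probe set gave 0.37 (adjusted p = 0.12 by limma).

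Of the 3 tested glucose transporters beside Slc2a1, 1 was higher for ventilation at 21% oxygen (7.00% of all). This was Slc2a4, the insulin-responsive GLUT4 of muscle and fat, which changed by 1.16 (adjusted p = 0.037 by limma) and is also on the fat list. Only its mechanical 21% samples, at 394 and 490, exceeded the highest sense-strand control reading of 294. This Slc2a4 call was lost under 4 of the other settings. The other transporter called was Slc5a1, a sodium glucose cotransporter, at 0.63 for oxygen with spontaneous breathing (adjusted p = 0.032 by limma), and its other probe set gave −0.18. Tkt, transketolase of the pentose phosphate pathway, changed by 0.70 for ventilation at 21% oxygen (adjusted p = 0.011 by limma).

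Among regulators of flux, Txnip, which restrains glucose uptake, averaged 5647 ± 79.4 in mechanical 100% samples and 11750.2 ± 1428 in spontaneous 21% samples, a log2 change of −1.05 (adjusted p = 0.0041 by limma), where its other probe set gave −0.40 (adjusted p = 0.23 by limma). Pfkfb4, which sets fructose 2,6-bisphosphate, was higher by 1.80 for ventilation at 100% oxygen (adjusted p = 0.017 by limma). Its spontaneous 100% samples, at 115 and 121, lay below the highest sense-strand control reading of 294. Pygb, a glycogen phosphorylase, was the single gene called among 5 tested for gluconeogenesis and glycogen, with an interaction of 1.03 (adjusted p = 0.022 by limma).

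A hypoxia list, which holds Hif1a, Arnt and Vhl beside other genes known to respond to hypoxia, was counted in the same way. Of its 11 tested genes 6 were higher and 1 lower for oxygen under ventilation, where 20.7% of all probe sets were higher and 14.4% lower. The lower one was Vhl at −0.42, whose other probe set gave −0.08. Hmox1 and P4ha1 were called higher with 100% oxygen under ventilation (2.12 and 0.66) and with spontaneous breathing (1.45 and 0.83). By gene, for oxygen under ventilation, 3 of the 7 glycolysis genes with a single-symbol probe set were lower and 0 higher. Here each gene counted by 1 probe set, and the 3 were Hk1, Aldoa and Eno1. The other Hk1 probe set gave 0.26 without a call, and the Aldoa call was lost under 10 of the other settings. The Eno1 probe set counted, X02610_g_at, turned to 0.17 under quantile scaling. The difference between the lists was not tested. Vegfa, the endothelial growth factor, averaged 3080.2 ± 470.1 in mechanical 100% samples and 1448 ± 6.14 in mechanical 21% samples (log2 change 1.06, adjusted p = 0.0017 by limma). Igfbp3, which binds insulin-like growth factors, changed by 1.76 for ventilation at 100% oxygen (adjusted p = 0.0051 by limma), and its other probe set by 2.38 (adjusted p = 0.028 by limma).

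**Figure D5:**
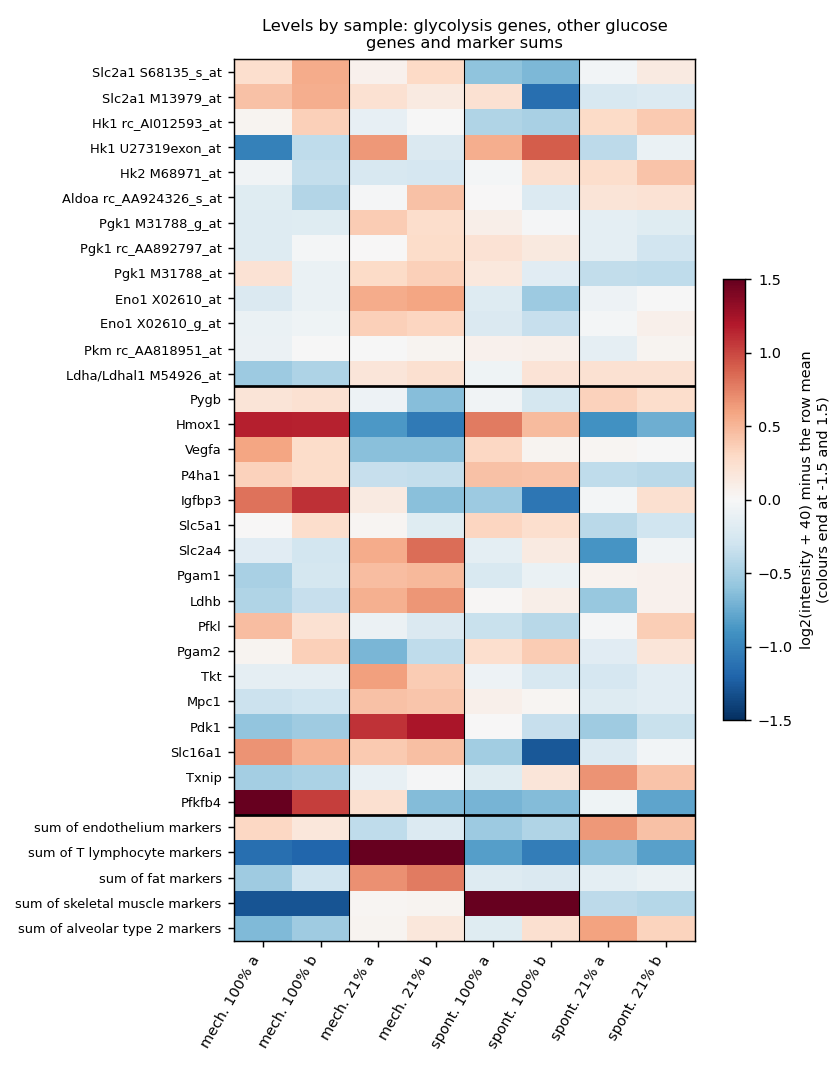
Log2(intensity + 40) of each sample minus the mean of its row, for the tested glycolysis probe sets, the called genes of the other glucose lists and the sums of 5 marker lists, with samples in columns by group. Pdk1, Ldhb and Pgam1 share their high colour in mechanical 21% samples with the sums of T lymphocyte and fat markers.

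The genes whose log2 levels ran most like each member over the 8 samples were listed by Pearson correlation, with no test. For Slc2a1 these were Csk, Rgs12 and Prkaca at 0.972, 0.971 and 0.970, and Csk had 974 and 1173 in mechanical 100% samples against 651 and 597 in spontaneous 100% samples. For Eno1 they were Dgka, Cpt2 and Prmt7 at 0.972, 0.969 and 0.967, and for Pgk1 Vcf1, Serp1 and Eloc at 0.972, 0.966 and 0.950. For M54926_at they were Pfn1, Tuba1b and Rpl6, the last at 0.987 and the first at 0.992, all bright probe sets, and Pfn1 had 7687 and 8121 in mechanical 100% samples against 9951 to 12189 in the other samples. Hk2 was most like Cd79b at 0.927, Aldoa most like Srsf5 at 0.892 and Pkm most like Igfbp2 at 0.965. Hk1, by U27319exon_at, was most like Pomp at 0.965. The samples share their groups and their scaling, which every such correlation carries.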

How the data were processed

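The authors deposited 1 linear intensity per probe set and array, from total RNA of rat lung per the labels. The values show a common 2% trimmed mean, so a scaling had been applied. The software that made them was not given in the sources used here. The 59 control probe sets were left out, values below 0 were set to 0, and log2(intensity + 40) was taken. A filter removed the 40% of lowest mean, leaving 5244 of 8740 probe sets to test. Levels in the text are means of deposited intensities.

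The 8 samples were modelled by group means in limma (version 3.58.1, R version 4.3.3) with eBayes, a variance trend and 4 residual degrees of freedom. Benjamini-Hochberg adjustment ran over all tested probe sets of each of 6 contrasts, and over no list alone. Named genes were all members and, from each other glucose list, up to 4 called genes and the brightest uncalled one, each by its brightest probe set with 1 symbol; the text names part of them. The likeness lists followed the same rule of 3 genes a member. Of the probe sets, 7006 have 1 gene symbol in the annotation, 308 have several and 1426 have none.

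The members, lists and tests were chosen with earlier results of these data known. The fit was tried on simulated data, and the number of calls required of its largest changes was lowered after the first trials missed it. The letters a and b share only a name: correlations of the a minus b differences between groups lay between −0.13 and 0.07. Alternatives covered scaling, offset, filter, the averaged arrays, blocks, trend, threshold, samples fitted and each sample left out. Aligning the array medians was added after the data were seen.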

Additional observations from a re-analysis of the deposited data

Results flagged for a closer look

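The oxygen effect differed between mechanical ventilation and spontaneous breathing in several results, by limma's interaction term with an adjusted p under 0.05. Among members these were Slc2a1 S68135_s_at at 0.90, Hk1 rc_AI012593_at at 1.07, Hk1 U27319exon_at at −1.97, Pgk1 M31788_g_at at −0.71, Pgk1 rc_AA892797_at at −0.65 and the Ldha and Ldhal1 probe set at −0.56, all as log2 differences. With the lot line, which nearly coincides with the groups of this contrast, allowed for, 0 of the 6 were called by limma and 3 had an unadjusted p under 0.05. Positive values mean that the change with 100% oxygen was more positive under mechanical ventilation.

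In the other glucose and hypoxia lists the interaction passed for Slc2a4 at −1.41, Ldhb at −1.31, Pgam1 at −0.63, Pfkl at 1.06, Tkt at −0.68, Mpc1 at −0.97, Pdk1 at −1.98 and Pygb at 1.03. It also passed for Vegfa at 0.89, Igfbp3 at 2.11, Hif1a, the oxygen-regulated subunit of HIF-1, at 1.16, Edn1, endothelin, at 0.78 and Hmox1, haem oxygenase, at 0.67. Other probe sets passed for Slc2a4 (−2.44), Vegfa (1.07 and 1.33) and Hmox1 (0.97). They had the same sign but did not pass for Pgam1 (−0.46 and −0.13), Ldhb (−0.89), Tkt (−0.55), Pygb (1.26) and Igfbp3 (1.31). With the lot line allowed for, 0 of these 13 genes were called by limma and 6 had an unadjusted p under 0.05.

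The 3 Gapdh control probe sets, which no comparison used, read at least 6842, 6332 and 6483 on every array, above the highest sense-strand control reading of 294. Groups held 2 samples, so no sample was tested as an outlier.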

How the results depend on the processing

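The 21 member calls were refitted under each alternative. Changing the offset to 10% or the filter to 60% kept all 21, while 12 were kept under quantile scaling, 14 under cyclic loess and 12 with no filter on low signal. Slc2a1 S68135_s_at for ventilation at 100% oxygen and Eno1 X02610_at for oxygen under ventilation passed in every alternative run. With the letter as a replicate block 18 of 21 calls were kept and 3 lost. A random block for the lot line could not be estimated, so it entered as a fixed term over 9 arrays, which kept 5 calls. That term rests on the mechanical 100% arrays alone, as no other group holds arrays both with and without the line. Of 1733 member results by setting, 1577 kept direction and side of the threshold, 121 lost a call, 31 gained one and 4 turned sign. Of 51 calls of other named genes, 42 were kept under quantile scaling, 27 with no filter, 18 with the lot line and 29 to 40 with 1 sample left out. Causes were not tested unless a setting itself tests fewer samples or more probe sets.

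Counts of called members moved as follows, against 2 for ventilation at 21% oxygen, 4 for ventilation at 100% oxygen, 2 for oxygen with spontaneous breathing, 6 for oxygen under ventilation, 1 for both together and 6 for the interaction. Quantile scaling gave 3 for oxygen under ventilation, 2 for both together and 3 for the interaction, and cyclic loess gave 2 for both together and 3 for the interaction. No filter gave 1 for ventilation at 21% oxygen, 1 for oxygen with spontaneous breathing, 2 for both together and 2 for the interaction. The lot line gave 0, 1, 0 and 3 for the first 4 comparisons and 0 for the interaction. No variance trend gave 1 for ventilation at 21% oxygen, and a threshold of 0.10 gave 4 there, 5 for oxygen with spontaneous breathing and 3 for both together. Fitting only the groups compared gave 2, and median centring 3, for both together. With 1 sample left out the ranges were 0 to 3, 2 to 5, 0 to 3, 2 to 6, 0 to 2 and 3 to 5 in the same order.

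Signs turned for Eno1 X02610_g_at under quantile scaling (0.17 for oxygen under ventilation, 0.49 for both together, adjusted p = 0.017 by limma), for the interaction of Hk1 U27319exon_at with the lot line (0.28), for Pfkfb4 for oxygen under ventilation with the lot line (−0.14), and for Hk2 at 100% oxygen when all its probe sets were averaged (0.76, adjusted p = 0.030 by limma). The median log2 change of all tested probe sets was 0.14 for oxygen under ventilation and 0.13 for ventilation at 100% oxygen, against −0.10 and −0.07 with median centring. Over all probe sets the split of higher and lower calls for oxygen under ventilation was 1085 and 756, against 661 and 1156 with median centring and 816 and 864 under quantile scaling. For ventilation at 100% oxygen it was 868 and 545, against 490 and 763 with median centring. Signals below the highest sense-strand control reading limit what dim probe sets such as M31788_at can show.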
